A study of Mus musculus with 2 samples.

Results

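Nonclassical monocytes of the adult mouse lung, marked by Treml4 and Cd300e, made up 960 of the 29837 cells that passed the filters. Cells were chosen by their transcripts, counted as unique molecular identifiers (UMIs), each of which stands for 1 captured transcript. A cell was a member when at least 3 of the 6 genes Treml4, Cd300e, Eno3, Ace, Adgre4 and Slc12a2 were detected, with Treml4 or Cd300e among them, and when Csf1r, the receptor gene of the growth factor that keeps monocytes alive, had at least 1 UMI. At most 1 of the 3 classical monocyte genes Vcan, F13a1 and Ccr2 could be detected, and no UMI of Cd3e, Cd79a, Mertk or Ptprb, which mark T cells, B cells, macrophages and endothelium. The values of all these genes therefore chose the cells, and they are given below as a description only.

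The study examined what loss of GFI1, a transcriptional repressor of blood cell development, does to immune cells of barrier tissues, with its interest in γδ T cells. The library labelled GFI1 KO came from an adult mouse of a Gfi1 knockout line and the library labelled WT from an adult mouse with an intact gene. The mice were kept on a C57BL6/J background and the labels name no treatment. Lungs were perfused, digested with collagenase and DNase, and sorted for live cells of any type, and libraries were made with the 10x Genomics 3′ chemistry together with 18 antibody tags. The knockout is not confined to monocytes, so a value in these cells can follow from any cell type that lacks GFI1. The methods describe duplicates of each genotype, and libraries beyond the pair described here were not analysed. Each genotype had 1 library here, so no test, p-value or spread between mice can be given, and the effect of the genotype cannot be told apart from that of the mouse or the library. Where a pair of values is given, the first is from the library labelled GFI1 KO and the second from the library labelled WT. Intervals in parentheses are exact 95% intervals that cover counting error only. They take each UMI as independent, so spread between cells is not in them. Levels are a gene's share of the summed UMIs of a cell group, scaled to 1000000 UMIs (CPM), without ribosomal protein, mitochondrial and Gm-number genes.

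Monocytes circulate as a classical, Ly6C-high kind that enters inflamed tissue and a nonclassical, Ly6C-low kind that stays in blood vessels. Nonclassical monocytes crawl along the inner wall of capillaries with the integrin LFA-1, sense fractalkine through CX3CR1, take up immune complexes through Fc receptors, and depend on the nuclear receptor NR4A1. The lung holds many of them in its capillary bed. GFI1 represses target genes in progenitors of the granulocyte and monocyte lineage, and it binds DNA at sequences with AATC at their centre.

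The gene start regions of 4 genes are shown, 2 that define the cells (Treml4 and Cd300e) and 2 that led the differences between the labels without mixed cells (Lrg1 and Saa3). Each is the run of 250 bases before the gene start in the gene's own direction, from RefSeq on GRCm38.p6, with every AATC or its reverse GATT in capitals. The counts were made on another build, GRCm39, so these coordinates were not joined to them. The Treml4 run is chr17:48264045-48264294 on the plus strand, the Cd300e run chr11:115062040-115062289, the Lrg1 run chr17:56121947-56122196 and the Saa3 run chr7:46715677-46715926, all 3 on the minus strand.
Treml4: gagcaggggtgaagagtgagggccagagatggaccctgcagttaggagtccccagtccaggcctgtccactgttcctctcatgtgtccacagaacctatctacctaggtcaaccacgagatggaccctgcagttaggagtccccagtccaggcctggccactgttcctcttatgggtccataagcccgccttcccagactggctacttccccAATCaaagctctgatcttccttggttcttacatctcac
Cd300e: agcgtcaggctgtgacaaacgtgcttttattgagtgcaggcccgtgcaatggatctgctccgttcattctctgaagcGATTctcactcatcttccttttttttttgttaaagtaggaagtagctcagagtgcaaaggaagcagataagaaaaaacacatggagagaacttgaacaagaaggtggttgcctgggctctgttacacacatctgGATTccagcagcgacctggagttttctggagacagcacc
Lrg1: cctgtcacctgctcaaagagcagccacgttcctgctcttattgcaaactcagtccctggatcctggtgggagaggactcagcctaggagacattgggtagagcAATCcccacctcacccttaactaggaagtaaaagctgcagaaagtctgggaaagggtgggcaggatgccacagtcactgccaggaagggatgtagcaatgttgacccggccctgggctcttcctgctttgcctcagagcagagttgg
Saa3: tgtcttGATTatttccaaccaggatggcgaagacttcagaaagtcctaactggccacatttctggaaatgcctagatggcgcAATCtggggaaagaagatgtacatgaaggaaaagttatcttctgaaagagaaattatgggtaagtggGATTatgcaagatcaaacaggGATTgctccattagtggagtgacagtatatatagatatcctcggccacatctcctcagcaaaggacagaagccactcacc
AATC or GATT was found 1 time before Treml4, 2 times before Cd300e, 1 time before Lrg1 and 4 times before Saa3. Of 32536 gene start regions of this length, 69.0% held at least 1, with a median of 1, so these letters were common. The longer run AAATCA (or TGATTT), which holds AATC, was in 12.3% of all regions, AAAGGTCA (or TGACCTTT), the site to which NR4A1 binds as a single molecule, in 1.35%, and neither was in the 4 shown. TTGCAA, a core of the C/EBP site, was in 5.28% of regions and among the 4 only before Lrg1. A match is not a binding site, and these data hold no binding measurements.

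The library labelled GFI1 KO gave 492 nonclassical monocytes among 10495 filtered cells (4.69%, 4.29 to 5.11), and the library labelled WT gave 468 among 19342 (2.42%, 2.21 to 2.65). The cell numbers were close while the shares were not, since the libraries differed in how many other cells they held. Classical monocytes, chosen by at least 2 of Vcan, F13a1 and Ccr2 with at most 1 of the 6 selection genes, numbered 2693 and 191, which is 25.7% and 0.987% of filtered cells, with median depths of 11562 and 8562 UMIs. They also had to hold a Csf1r UMI and no UMI of Cd3e, Cd79a, Mertk or Ptprb. At most 1 of the granule genes Mpo, Elane, Prtn3 and Ctsg could be detected in them. B cells, chosen by Cd79a and Ms4a1 as the comparison for free RNA, numbered 786 and 2654, with 4081.5 and 4520.5 UMIs. The depth of the chosen cells was alike, with medians of 6907.5 and 6728.5 UMIs and 2541 and 2529.5 genes per cell, whereas over all filtered cells the medians were 11076 and 6217 UMIs. Ribosomal protein genes took 13.4% and 11.7% of the UMIs of the chosen cells and mitochondrial genes 2.49% and 1.74%, and the part of these shares in the differences below was not tested. The chosen cells gave 3207187 and 3069755 UMIs for the levels, so 3 UMIs, the limit set for a count of 0, stand for a level of about 1 CPM. The libraries shared 74 cell barcodes, of which 3 belonged to nonclassical monocytes labelled GFI1 KO and 0 to those labelled WT.

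Gfi1 (ENSMUSG00000029275), the targeted gene, gave 9 UMIs in 8 of the 492 cells labelled GFI1 KO (2.81 CPM, 1.28 to 5.33) and 0 UMIs in the 468 cells labelled WT, which by that limit allows a level of up to 0.977 CPM and a share of cells with a UMI of up to 0.641%. In B cells it stood at 14.2 and 6.76 CPM. Which part of the gene the allele lacks is not given in the sources used here, and a 3′ tag outside that part checks nothing, so the Gfi1 level does not check the labels. Its paralog Gfi1b, which acts in red cell and platelet precursors, stood at 8.11 and 4.56 CPM. Both genes were near the lower limit of what these cells can show.

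Some of the chosen cells also carried genes of another cell type, and they were far more numerous under the WT label. A cell with 5 or more detected genes of a list for 1 other cell type is called mixed below, a threshold set after seeing the data. Mixed cells numbered 3 of 492 under the GFI1 KO label (0.610%) and 74 of 468 under the WT label (15.8%), with median depths of 15598 and 11293.5 UMIs against 6904 and 6233.5 in the other cells. Most of the 74 held neutrophil genes. Of the 8 neutrophil genes S100a8, S100a9, Retnlg, Csf3r, Cxcr2, Ly6g, Mmp9 and Il1r2, at least 5 were detected in 62 cells labelled WT (13.2%) and in 0 labelled GFI1 KO, where 0 cells leave room for a share of up to 0.610%. No cell labelled WT had exactly 4, and 59 of the 62 had 6 or more, so these cells stood apart from the rest.

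**Figure D1:**
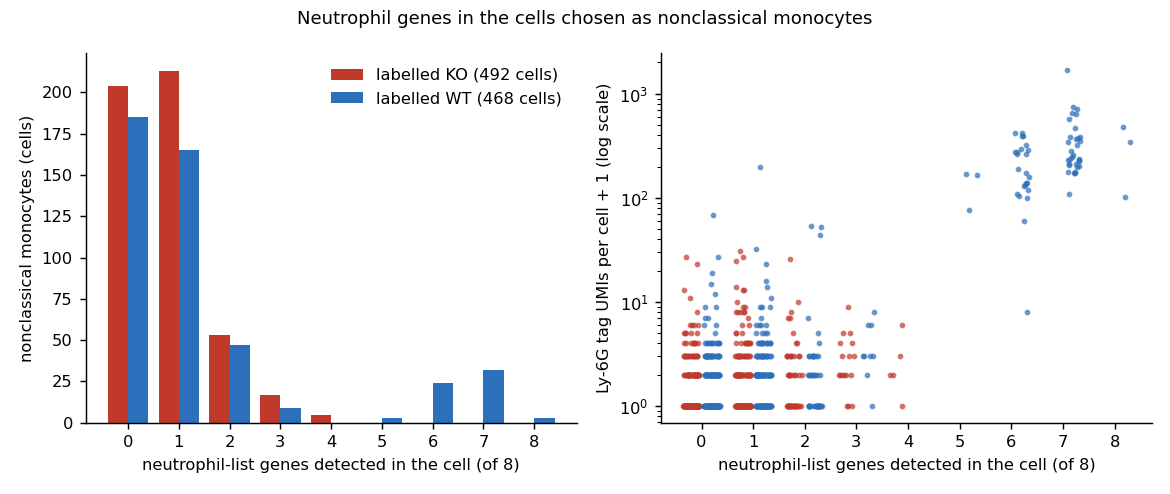
The left panel counts nonclassical monocytes by how many of 8 neutrophil genes were detected in the cell, and the right panel plots each cell's Ly-6G antibody tag UMIs plus 1 on a log scale, by label. Under the WT label 62 cells with 5 or more genes form a separate group with a median of 236 tag UMIs, and no cell labelled GFI1 KO is in it.

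The Ly-6G tag, an antibody to a neutrophil surface protein that the rule did not use, had a median of 236 UMIs on these 62 cells and of 1 UMI on the other 406 cells labelled WT. Under the GFI1 KO label its median was 0. The neutrophil list summed to 286 CPM under the GFI1 KO label, with 6 of 8 genes detected, Ly6g and Mmp9 at 0 and Csf3r highest at 122 CPM, and to 5734 CPM under the WT label, with 8 of 8 detected and S100a9 highest at 2662 CPM. Without mixed cells the sums were 278 and 175 CPM, with Csf3r highest in both. Scrublet, which calls droplets that held more than 1 cell from their transcripts, marked 3 and 11 of the chosen cells, 1 and 7 of them among the mixed cells. Mixed cells labelled WT also carried more of the CD11b and CD45 tags, with medians of 1525.5 and 1539.5 UMIs against 328.5 and 649.5 on the other cells. Results are therefore given with and without mixed cells. These were left out of the nonclassical monocytes only. The classical monocytes, also in ratios to them, kept their mixed cells, 110 and 12 (4.08% and 6.28%).

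The other lists gave fewer mixed cells. The dendritic cell list summed to 33.7 and 213 CPM, with 8 of 8 genes detected in both, Cd209a highest under the GFI1 KO label (11.5 CPM) and Ccl17 highest under the WT label (73.6 CPM), and 2 and 6 cells had at least 5 genes. The T and NK cell list summed to 5.30 and 176 CPM, led by Gzma, with Cd3g and Ncr1 at 0 in cells labelled GFI1 KO and 0 and 6 mixed cells. The interstitial macrophage list summed to 2246 and 2357 CPM, nearly all of it Apoe (2138 and 2284 CPM), which monocytes also make, and the alveolar macrophage list to 847 and 293 CPM, nearly all of it Chil3 (815 and 257 CPM), which classical monocytes also make. Macrophage-defining Cd163 was at 0 in the cells labelled GFI1 KO. The epithelial list summed to 24.6 and 161 CPM, led by Scgb1a1, with Sftpd at 0 in both, and the B cell list to 99.5 and 123 CPM, led by Ighm, with Ms4a1 at 0 in the cells labelled GFI1 KO. Endothelial genes summed to 31.8 and 67.8 CPM, led by Calcrl, with Tie1 at 0 in both. Platelet genes summed to 5.30 and 12.7 CPM, led by Gng11, with Gp1bb at 0 in both. Fibroblast genes summed to 56.4 and 69.1 CPM, led by Gsn, which other cells also make, with 3 and 8 of 8 genes detected and the collagens Col1a1, Col1a2 and Col3a1 at 0 in the cells labelled GFI1 KO. The part of these cells in the differences below was not tested except by leaving the mixed cells out.

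Identity genes outside the rule were high in the chosen cells, which went with their name. Spn (ENSMUSG00000051457), the gene of CD43, a sialic-acid-rich surface protein by which nonclassical monocytes are sorted, stood at 467 CPM in cells labelled GFI1 KO and 499 CPM under the WT label. Without mixed cells it stood at 474 (450 to 498) and 561 (531 to 593) CPM, against 42.5 and 59.6 CPM in classical monocytes and 13.9 and 24.5 CPM in B cells. A UMI of Spn was found in 82.1% and 86.3% of the chosen cells, and after thinning in 64.4% and 67.8% of those without mixed cells, against 2.34% and 2.87% of B cells. It was thus high in both libraries and low in both comparison populations.

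The genes named in the background behaved alike. Without mixed cells, Nr4a1 (ENSMUSG00000023034), the factor these cells depend on, stood at 1646 and 1932 CPM, against 812 and 842 CPM in classical monocytes, where it is not absent. Cx3cr1, the fractalkine receptor, stood at 403 and 399 CPM, 2.88 and 2.21 times its level in classical monocytes. Itgal, the α chain of LFA-1, stood at 1153 and 1398 CPM, 4.22 and 4.95 times the classical level, and Fcgr4, an activating Fc receptor, at 441 and 401 CPM, 3.39 and 10.0 times. All 4 were higher than in classical monocytes in each library, Fcgr4 by unequal amounts, with a classical level of 130 CPM in cells labelled GFI1 KO and 40.0 CPM under the WT label.

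**Figure D2:**
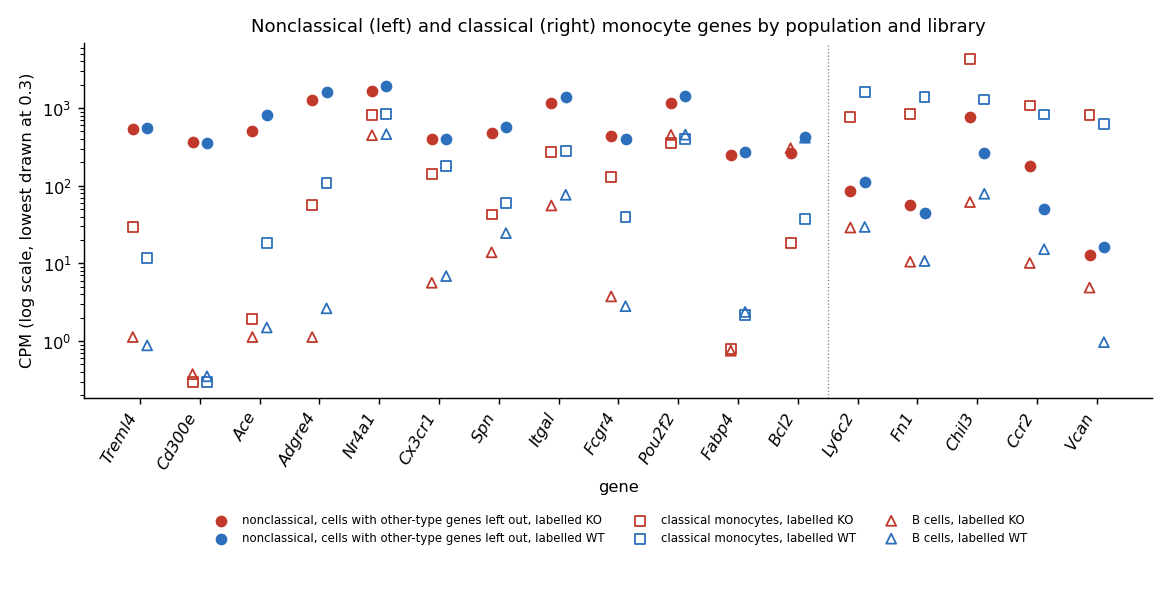
Level of 17 genes in CPM on a log scale, for nonclassical monocytes without mixed cells (filled circles), classical monocytes (squares) and B cells (triangles), by label. The nonclassical genes left of the dotted line are highest in the filled circles except Bcl2, which is as high in B cells, and the classical genes on the right are lower there than in classical monocytes.

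Of 24 identity genes that the rule did not use, 18 were at least 2-fold higher than in classical monocytes in both libraries, with or without mixed cells, and 0 were 2-fold lower. Over all 6215 genes compared, 307 (4.94%) were 2-fold higher in both and 230 (3.7%) were 2-fold lower. Without mixed cells the numbers were 318 of 6216 (5.12%) and 286 (4.6%). The median ratio of the 24 genes to classical monocytes was 3.46 in cells labelled GFI1 KO and 5.15 under the WT label, against 1.02 for all genes in both. Fabp4, a fatty acid carrier, gave ratios of 313 and 123 without mixed cells, and Bcl2, which blocks cell death, of 14.5 and 11.5. Both populations were chosen by genes that go with identity, so these ratios describe the choice as much as the cells.

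Genes of the classical kind were low but not at 0. Ly6c2, part of the Ly6C surface mark, stood at 85.2 and 111 CPM without mixed cells, against 773 and 1600 CPM in classical monocytes, a ratio of 0.110 and 0.0696. Fn1, fibronectin, gave ratios of 0.0683 and 0.0317. Of 15 classical genes that the rule did not use, 11 were at least 2-fold lower than in classical monocytes in both libraries. Plac8 was not among them, at 3653 and 2464 CPM, 0.881 and 0.595 of the classical level.

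Over all genes, the 10 highest over classical monocytes were Cd300e, Slc12a2, Dnah12, Eno3, Fabp4, Ace, Ccdc192, S1pr5, Pparg and Vegfc, of which Cd300e, Slc12a2, Eno3 and Ace belong to the rule. S1pr5, a sphingosine-1-phosphate receptor that these monocytes use to leave the bone marrow, stood at 89.3 and 131 CPM without mixed cells against 0.873 and 2.18. Pparg, a nuclear receptor of lipid handling, stood at 610 and 1056 CPM against 13.3 and 40.7. Vegfc, a growth factor of lymph vessels, stood at 55.7 and 95.6 CPM against 0.159 and 1.45, which are 4 and 2 UMIs. Dnah12, a motor protein of cilia, stood at 98.5 and 155 CPM over all chosen cells, against 0.635 CPM and 0 UMIs. The 10 lowest were F13a1, Vcan, Glp2r, Fn1, Ly6a2, Ccl2, Mmp19, Retnla, Gas7 and Nrg1, of which F13a1 and Vcan belong to the rule.

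The other lists held genes in both directions against classical monocytes, and their counts are given beside the 4.94% higher and 3.7% lower of all genes, with no test. Of 18 adhesion genes compared, 9 were 2-fold higher than in classical monocytes in both libraries and 2 were lower (3 without mixed cells), the higher ones among them Pecam1 (CD31, 26.2 and 13.4 times without mixed cells), Itgax (17.0 and 6.63 times) and the integrin chains Itga4 (2.26 and 2.37) and Itgb1 (2.51 and 2.21). Of 26 transcription factor genes, 2 were lower in both (4 without mixed cells) and 5 were higher, and these were Nr4a1, Id2, Pou2f2 (3.28 and 3.56), Tcf7l2 (4.74 and 6.26) and Bcl6 (3.75 and 3.26). Of 12 lipid genes, 5 were higher in both and 0 lower (1 without mixed cells), with the cholesterol sensor Nr1h3 at 12.1 and 7.39 times. Of 25 interferon-stimulated genes, 0 were higher and 12 were lower, with a median ratio of 0.527 and 0.317. Of 9 TREM and CD300 receptor genes, Cd300c2 (3.13 and 3.36) and Cd300ld (3.48 and 4.87) were higher in both, and 1 was lower (2 without mixed cells). Of 14 Fc receptor and signalling genes, Fcgr4 was the only 1 higher in both, and Fcgr1, Fcgr2b and Fcgr3 were lower, with median ratios of 1.04 and 1.05.

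MHC class II genes, which present antigen to T cells, did not move the same way against classical monocytes in both libraries. H2-Aa stood at 1160 and 966 CPM in nonclassical monocytes without mixed cells, and at 165 and 1487 CPM in classical monocytes. The ratio was 7.01 (6.71 to 7.33) in cells labelled GFI1 KO and 0.650 (0.612 to 0.690) under the WT label. The nonclassical levels were close while the classical levels were not, so the unequal values were those of the classical cells.

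How strongly a cell belonged was graded by how many of the 6 selection genes it showed. Among cells labelled GFI1 KO, 94 had 3 genes, 115 had 4, 163 had 5 and 120 had 6, and among those labelled WT 67, 118, 172 and 111. Just outside the rule, with 2 genes and all else met, were 90 and 20 cells. Their Spn level was 140 and 87.1 CPM, against 234 and 352 CPM in the cells with 3 genes just inside, and 629 and 555 CPM in those with 6. Chil3, a chitinase-like protein of classical monocytes, went the other way under the GFI1 KO label, at 2738 CPM just outside, 1594 CPM with 3 genes and 374 CPM with 6. Under the WT label it stood at 127, 645 and 174 CPM. The median depth was 9299.5 and 6112 UMIs with 3 genes and 7020.5 and 7168 with 6, so the cells labelled GFI1 KO with the fewest selection genes were also the deepest.

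**Figure D3:**
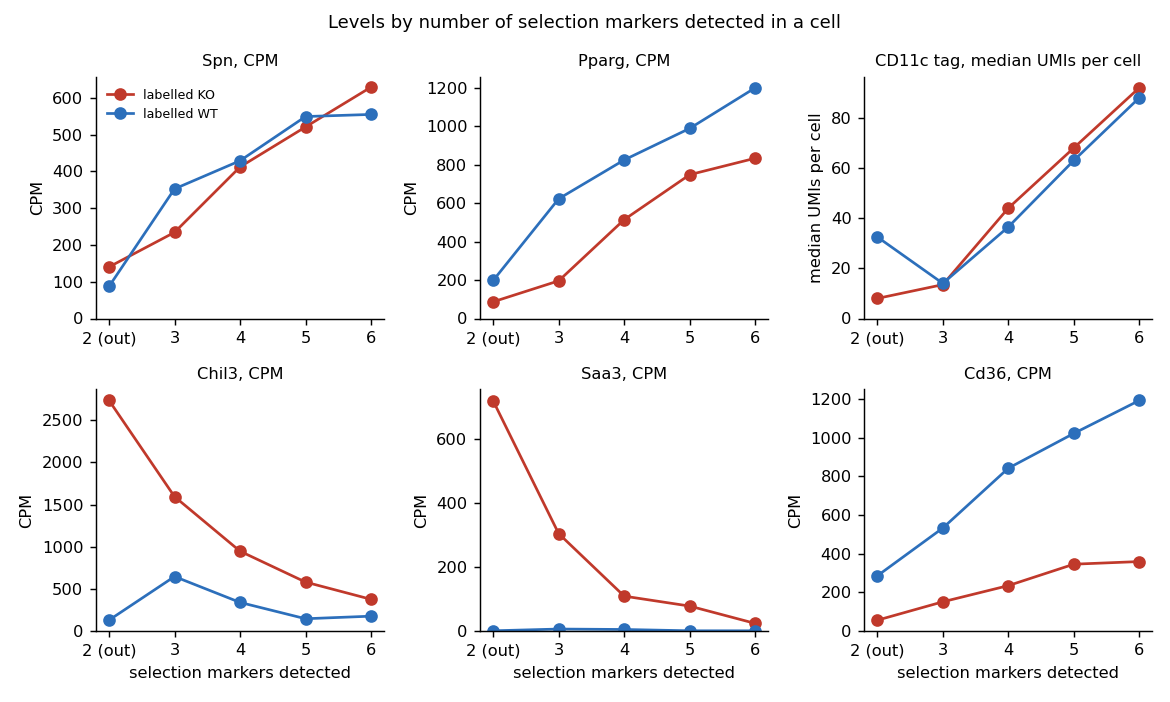
Levels in CPM, and the median CD11c tag in UMIs per cell, for cells with 2 (just outside the rule), 3, 4, 5 or 6 selection genes detected, mixed cells included, by label. Spn, Pparg and Cd36 are higher and, under the GFI1 KO label, Chil3 and Saa3 are lower in cells with more selection genes, and Pparg and Cd36 lie lower under the GFI1 KO label at every step.

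The rule allowed 1 classical marker, and how often it was found is a description of cells that this rule chose. Without mixed cells, 188 of the 489 cells labelled GFI1 KO had 1 of Vcan, F13a1 and Ccr2 detected, against 78 of 394 labelled WT. Ccr2, the receptor that calls classical monocytes out of the marrow, stood at 182 and 71.0 CPM over all chosen cells, and it is a rule gene. Pparg was lower under the GFI1 KO label in every class of marker number, at 196 against 623 CPM with 3 genes and at 834 against 1200 CPM with 6. Since these numbers differed between the labels, ratios are also given for the 301 and 316 cells with no classical marker. Those had median depths of 5788 and 5795 UMIs, against 9553.5 and 8741.5 in the cells with 1, so the cells with a marker were the deeper ones in both libraries.

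The antibody tags gave proteins that the rule did not use. CD11b, an integrin chain of myeloid cells, had a median of 475.5 UMIs per cell under the GFI1 KO label (quartiles 301.5 and 721) and 357.5 under the WT label (231.75 and 593.25). Classical monocytes had 792 and 548, and B cells 4 and 2. CD11c had a median of 52.5 (quartiles 14 and 124) and 56 (21 and 125), against 6 and 9 on classical monocytes and 3 and 6 on B cells. Nonclassical monocytes therefore carried less CD11b and more CD11c tag than classical monocytes in both libraries, and the quartiles of CD11c did not overlap with those of the classical cells (4 to 10 and 7 to 15). The CD11c tag was higher with more selection genes, with medians of 13.5 and 14 UMIs for 3 genes and 92 and 88 for 6. CD45, on all blood cells, had medians of 980 and 707. The 2 isotype controls were at 2 and 4 and at 0 and 0. Tag counts were not scaled between libraries, and the streptavidin tag, at 19 and 35, had the opposite order to CD11b and CD45.

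Between the labels, the 6 selection genes had ratios of GFI1 KO over WT from 0.581 (Slc12a2) to 1.57 (Eno3). Treml4 (ENSMUSG00000051682) stood at 533 and 497 CPM, a ratio of 1.07, and Cd300e (ENSMUSG00000048498) at 362 and 318 CPM, a ratio of 1.14. Ace, the angiotensin-converting enzyme, stood at 501 and 719 CPM, a ratio of 0.697. Of 6129 genes compared, those with a mean level of at least 20 CPM, 65 (1.06%) were at least 2-fold higher in cells labelled GFI1 KO and 125 (2.04%) at least 2-fold lower. Without mixed cells 6087 genes were compared, 72 (1.18%) were higher and 59 (0.969%) lower. The median ratio of all genes was 1.01 with and 0.989 without mixed cells. These are sizes and not tests, and the lower group shrank when mixed cells were left out.

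**Figure D4:**
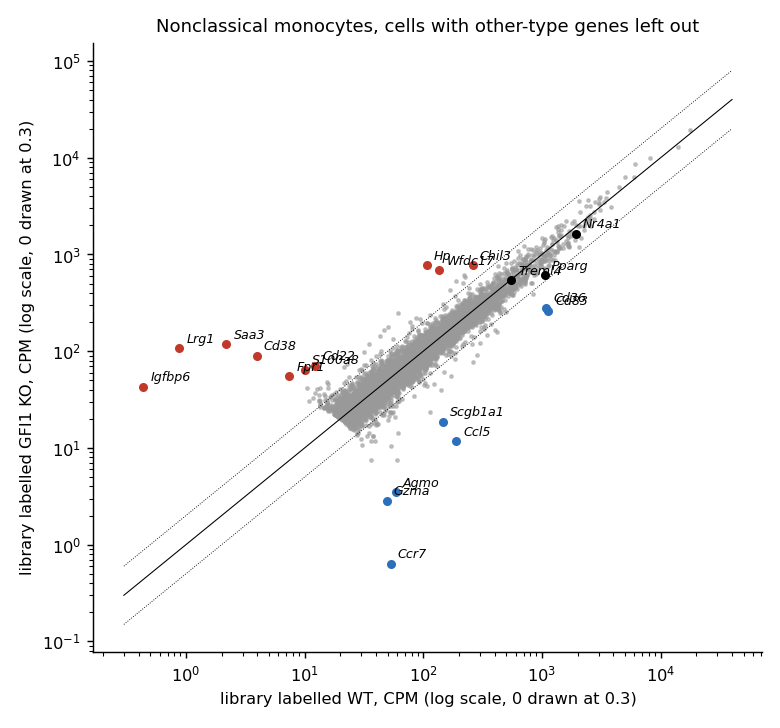
Each point is a gene with a mean level of at least 20 CPM in nonclassical monocytes without mixed cells, its CPM under the WT label on the x axis and under the GFI1 KO label on the y axis, both on log scales. The solid line marks equal levels and the dotted lines a 2-fold difference, beyond which 72 genes lie above and 59 below.

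Most of the 10 lowest ratios over all chosen cells came from mixed cells. Retnlg, Mmp9, S100a9, Cxcr2 and S100a8 are neutrophil genes, Ccl22, Ccr7 and Ccl17 go with mature dendritic cells, Timd4 with resident macrophages and Gzma with cytotoxic lymphocytes. All of these but Ccl22 and Timd4 are on the lists that named mixed cells. That their UMIs sat in mixed cells thus depends partly on that choice. S100a9 stood at 45.8 CPM in cells labelled GFI1 KO and 2662 under the WT label, and without mixed cells at 46.5 and 21.5 CPM, so that its ratio went from 0.0172 to 2.17. In cells that had no classical marker it was 0.919 (0.573 to 1.47). Among the cells labelled GFI1 KO, 1 cell held 80 of the 147 S100a9 UMIs. The thinned shares of S100a9 without mixed cells, 2.54% and 3.72%, had the opposite order to the ratio of 2.17. They lay below those of B cells in both libraries. The ratio of S100a8 went from 0.0370 to 6.40 when mixed cells were left out, and 99.6% of its UMIs under the WT label were in them. S100a8 and S100a9 are on the neutrophil list by which most mixed cells were named, so both changes depend on that choice. The thinned shares of cells with an S100a8 UMI, 4.66% and 2.13% without mixed cells, lay near those of B cells, 3.07% and 3.82%, so a low level of S100a8 cannot be told from free RNA of other cells. Mmp9 had 0 and 205 UMIs, at least 71.4-fold lower under the GFI1 KO label, and without mixed cells 0 and 1 UMIs. Ccl22 had 0 and 165 UMIs, at least 57.5-fold lower, and 0 and 17 without mixed cells. Ccr7, the receptor that guides dendritic cells to lymph nodes, kept a low ratio without mixed cells, 0.0119 (0.00143 to 0.0440). Its UMIs sat, however, in only 1 and 18 of all chosen cells.

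Saa3 and Lrg1, both acute-phase genes, led the higher group without mixed cells, while over all chosen cells Saa3 ranked first, ahead of Cd38, Igfbp6, Cd22 and then Lrg1. Saa3 (ENSMUSG00000040026), serum amyloid A3, stood at 117 CPM (375 UMIs) in cells labelled GFI1 KO and 1.63 CPM (5 UMIs) under the WT label, a ratio of 71.8 (30.5 to 222). The UMIs were found in 68 and 2 cells, and 240 of the 375 sat in 10 cells. Without mixed cells the ratio was 54.1 (23.0 to 168), and within the cells that had no classical marker the levels were 20.9 and 1.21 CPM, a ratio of 17.3 (4.44 to 149). Saa3 was thus carried by a minority of the cells, and its level was higher with fewer selection genes, at 718 CPM just outside the rule, 304 with 3 selection genes and 23.0 with 6, all under the GFI1 KO label. Classical monocytes held 793 and 10.2 CPM, a ratio of 77.9, and B cells 3.75 and 1.05 CPM. After thinning each cell to 3000 UMIs, a UMI was found in 8.47% and 0.266% of cells without the mixed ones, against 0.730% and 0.261% of B cells, so the share labelled WT was at the background.

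Lrg1 (ENSMUSG00000037095), a leucine-rich glycoprotein of granules and plasma, stood at 107 and 22.2 CPM over all chosen cells. Under the WT label 97.1% of its UMIs were in mixed cells, and without them it stood at 108 (96.5 to 120) and 0.877 (0.106 to 3.17) CPM, from 340 and 2 UMIs. The ratio went from 4.83 to 123 (33.7 to 1017), and with no classical marker allowed and mixed cells left in its log2 value was 0.70, below 2-fold. It was found in 25.8% and 5.98% of all chosen cells, and after thinning, without mixed cells, in 15.0% and 0.266%, against 1.61% and 0.261% of B cells. Within cells that had no classical marker it stood at 38.2 and 0.605 CPM, and in classical monocytes at 703 and 5.09 CPM.

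Hp (ENSMUSG00000031722), haptoglobin, which binds free haemoglobin, was found in most cells labelled GFI1 KO and in a minority of those labelled WT. It stood at 761 and 190 CPM over all chosen cells and at 772 (742 to 803) and 107 (93.6 to 121) without mixed cells, a ratio of 7.24 (6.35 to 8.30). A UMI was found in 87.0% (83.7 to 89.8) and 40.6% (36.1 to 45.2) of the chosen cells. After thinning each cell to 3000 UMIs the shares without mixed cells were 76.1% and 19.9%, against 2.63% and 0.869% of B cells. Its ratio was 7.13 in cells with no classical marker and 7.04 in cells with 1. In classical monocytes its ratio was lower, 2.79 (2.61 to 2.99), from 1758 and 630 CPM.

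**Figure D5:**
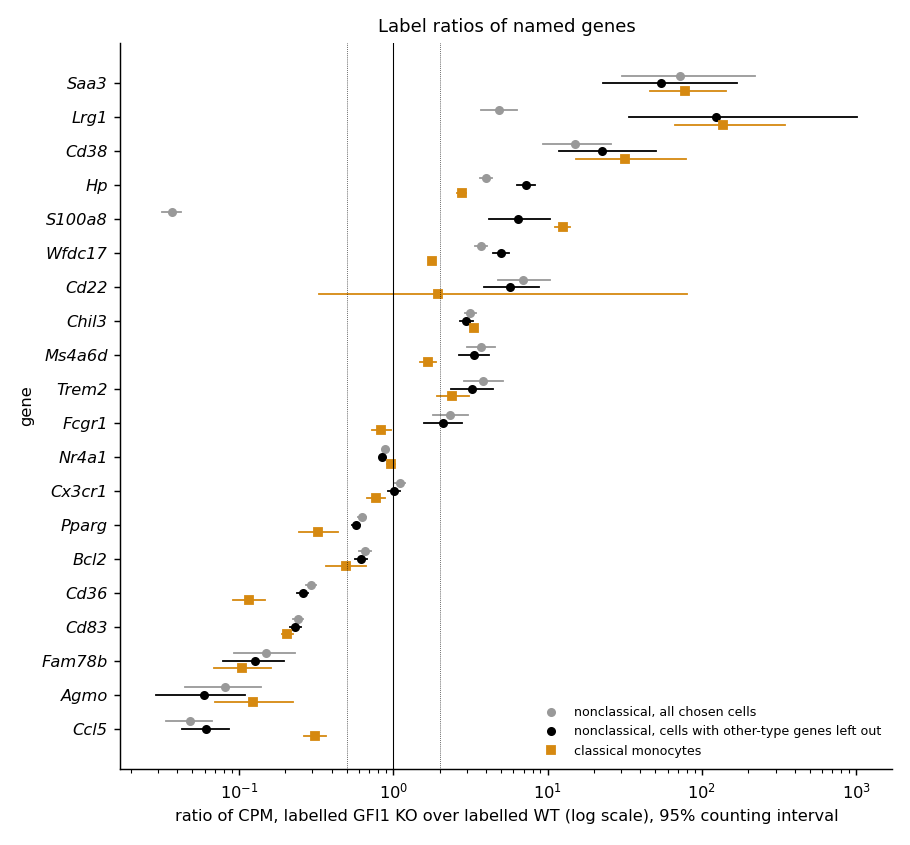
Ratio of CPM, labelled GFI1 KO over labelled WT, on a log scale with 95% counting intervals, for 20 genes in all nonclassical monocytes (grey), in those without mixed cells (black) and in classical monocytes (squares). Lrg1 and S100a8 differ widely between grey and black, while Saa3, Chil3, Cd36 and Cd83 lie close in both.

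Other genes of the higher group were Cd38, Igfbp6, Cd22, Wfdc17, Areg, Ms4a6d and Chil3, and, without mixed cells, Fpr1, S100a8 and Ier3. Cd38, an enzyme that consumes NAD, stood at 88.6 and 5.86 CPM over all chosen cells, a ratio of 15.1 (9.38 to 25.9), and at 89.6 and 3.95 CPM without mixed cells, a ratio of 22.7 (11.8 to 50.1). It was found in 26.8% and 2.14% of all chosen cells. Igfbp6, which binds insulin-like growth factors, gave 142 and 13 UMIs over all chosen cells, a ratio of 10.5 (5.92 to 20.1), and 136 and 1 UMIs without mixed cells, a ratio of 98.2 (17.3 to 3905). With no classical marker allowed and mixed cells left in, its log2 ratio was 1.91. The size of the Igfbp6 ratio thus rests on which cells are counted. Cd22, an inhibitory receptor best known from B cells, stood at 70.6 and 12.3 CPM without mixed cells. The B cell list stood at 99.5 and 123 CPM, in cells that the rule required to hold no Cd79a, and its part in the Cd22 values was not tested. The ratio of Cd22 was 9.58 in cells that had no classical marker and 1.09 in cells with 1. Fpr1, a receptor for bacterial peptides, stood at 54.3 and 16.9 CPM over all chosen cells, a ratio of 3.20 (2.34 to 4.45), with 67.3% of its UMIs under the WT label in mixed cells. Without mixed cells, where 174 and 17 UMIs gave 55.1 and 7.46 CPM, the ratio was 7.39, with 11.4 in cells that had no classical marker and 2.96 in cells with 1.

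Areg, amphiregulin, a growth factor for epithelium, stood at 167 and 46.5 CPM without mixed cells, a ratio of 3.58 (2.90 to 4.46). Its UMIs were in 72 and 21 of the chosen cells, and 277 of 526 and 103 of 124 sat in 10 cells of each library, so the ratio rests on few cells. In classical monocytes the ratio was 0.593 (0.486 to 0.730). Chil3 stood at 777 and 260 CPM without mixed cells, which is 2.99 (2.73 to 3.27) as a ratio, with 2.42 in cells that had no classical marker and 2.41 in cells with 1. With cells thinned before the rule, and mixed cells left in, its log2 ratio was 0.82, below 2-fold. Wfdc17, a secreted protein of activated macrophages, stood at 687 and 137 CPM without mixed cells, and Ms4a6d, a membrane protein of myeloid cells, at 143 and 43.0 CPM. Ier3, an early response gene, stood at 245 and 104 CPM over all chosen cells, a ratio of 2.36 (2.07 to 2.70), and at 246 and 61.0 CPM without mixed cells, a ratio of 4.04 (3.37 to 4.87). With no classical marker allowed, the log2 ratio of Ier3 was 0.17 with mixed cells and 0.93 without them, below 2-fold both ways. In classical monocytes the ratios of Wfdc17, Ier3 and Ms4a6d were 1.78, 2.92 and 1.68.

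Cd36 and Cd83 led the abundant genes that were lower under the GFI1 KO label. Cd36 (ENSMUSG00000002944), a scavenger receptor for oxidized lipids and fatty acids and a known gene of nonclassical monocytes, stood at 284 and 968 CPM over all chosen cells. Without mixed cells it stood at 283 (264 to 302) and 1090 (1048 to 1134) CPM, a ratio of 0.259 (0.240 to 0.280). A UMI was found in 49.0% and 85.7% of the chosen cells. The thinned shares without mixed cells were 37.3% and 74.2%, against 5.26% and 8.12% of B cells. The ratio was 0.321 in cells that had no classical marker and 0.236 in cells with 1, and Cd36 was lower under the GFI1 KO label in each class of marker number, at 359 against 1194 CPM with 6. In classical monocytes it stood at 8.69 and 74.9 CPM.

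Cd83 (ENSMUSG00000015396), a surface protein of activated antigen-presenting cells, stood at 262 (245 to 281) and 1129 (1086 to 1174) CPM without mixed cells, a ratio of 0.232 (0.215 to 0.251). It was found in 50.8% and 88.2% of the chosen cells, and its ratio in cells that had no classical marker was 0.286. Classical monocytes held 110 and 534 CPM, and B cells, which express the gene, 928 and 833 CPM. Agmo, an enzyme that cleaves ether lipids, stood at 3.48 and 58.8 CPM, and the uncharacterized Fam78b and Ccdc192 at 7.60 and 59.6 and at 23.7 and 114 CPM. Ccl5, a chemokine of T and NK cells, stood at 11.7 and 190 CPM and Pkib, an inhibitor of protein kinase A, at 10.4 and 53.1 CPM. Of the 235 Pkib UMIs in all chosen cells labelled WT, 216 sat in 10 cells. The thinned shares of Pkib without mixed cells were 1.91% and 1.86%, against 24.8% and 29.8% of B cells. Ccl5 sat in few cells, 16 and 58 of those chosen, with 41.0% of its UMIs under the WT label in mixed cells, and its thinned shares without mixed cells, 1.27% and 6.91%, were close to those of B cells, 1.61% and 6.04%. Gzma, at 2.85 and 49.1 CPM, was below its level in B cells, 103 and 155 CPM. Scgb1a1, a secreted protein of airway epithelium, stood at 18.7 and 146 CPM, and B cells, which should lack it, held 36.4 and 2122 CPM. The level in nonclassical monocytes was thus below that background in both libraries. Its thinned shares without mixed cells were 3.81% and 32.4%, against 6.57% and 32.2% of B cells. By share, the cells labelled WT were therefore at the background.

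Pparg (ENSMUSG00000000440) was abundant and lower by less than 2-fold. It stood at 610 (583 to 638) and 1056 (1014 to 1099) CPM without mixed cells, a ratio of 0.578 (0.544 to 0.614), with 0.709 in cells that had no classical marker and 0.533 in cells with 1. In classical monocytes the ratio was 0.327. Beside the 1.06% of all genes that were 2-fold higher and 2.04% lower (1.18% and 0.969% without mixed cells), of 26 transcription factor genes 1 was higher by 2-fold (Id3) and 3 were lower, among them Nr4a3 and Egr1, and without mixed cells 0 and 1, with a median of 0.884. Klf4, a factor needed for monocyte maturation, stood at 506 and 830 CPM, Bcl6 at 329 and 459 and Bcl2 at 264 and 428. Nr4a1, with a ratio of 0.852 (0.818 to 0.887), Cx3cr1, with 1.01 (0.927 to 1.10), and Spn, with 0.844 (0.783 to 0.910), lay nearer to 1. Of 18 adhesion genes, 0 were higher and 2 were lower, among them Ccr1, and without mixed cells 16 were compared, with 0 in either direction and a median of 0.850. Of 11 lipid genes compared, Fabp5 was higher and Cd36 lower.

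The counts over the lists stand beside 1.06% of all genes 2-fold higher and 2.04% lower, or 1.18% and 0.969% without mixed cells, and no list was tested. The 24 identity genes gave 0 higher and 2 lower by 2-fold (Cd36 and Cd9), with a median ratio of 1.00, and without mixed cells 0 and 1 with a median of 0.926. Of 15 classical genes, 2 were higher (Hp and Chil3), 1 was lower and the median was 1.52. Without mixed cells 14 were compared, 3 were higher (Hp, Chil3 and Cd14) and 0 lower, with a median of 1.31. Of the granule and acute-phase list, 11 of 20 genes were compared, 4 were higher and 4 lower. Without mixed cells 7 were compared, 6 were higher (Saa3, Lrg1, Hp, S100a8, S100a9 and Chil3) and 0 lower, and the remaining gene was Pglyrp1, an antibacterial protein, at 442 and 461 CPM. For S100a9, 1 cell labelled GFI1 KO held 80 of 147 UMIs. Its thinned share without mixed cells was lower in that library, 2.54% against 3.72%. Saa3, Lrg1 and S100a8 reached the level for a ratio only through the cells labelled GFI1 KO. The other 13 genes of the list did not reach it, so this count is not evidence about the list.

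Of 35 interferon-stimulated genes listed, 14 were compared, and most lay less than 2-fold below a ratio of 1. Of the 14, 0 had a ratio above 1, against 3117 of all 6129 genes compared, and 2 were lower by 2-fold, with a median of 0.786 against 1.01 for all genes, of which 2.04% were lower by 2-fold. Oasl2, an antiviral gene of this list, stood at 7.60 and 36.4 CPM without mixed cells, a ratio of 0.209 (0.127 to 0.332). Leaving mixed cells out took Isg15 from a ratio of 0.647 to 1.86 and left 2 ratios above 1, with a median of 0.789. The sum of the list was 958 and 1368 CPM over all chosen cells.

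MHC class II genes differed by little between the labels, with 7 of 7 compared ratios above 1, a median of 1.20 and 0 at 2-fold. Without mixed cells H2-Aa had a ratio of 1.20 (1.14 to 1.27) and Cd74, the invariant chain, of 1.12 (1.09 to 1.15), and in cells that had no classical marker the ratios were 0.847 and 0.875, so the direction turned with the choice of cells. For the next counts the shares of all genes 2-fold higher and lower were again 1.06% and 2.04%, and 1.18% and 0.969% without mixed cells. Among Fc receptor and signalling genes, 1 of 14 was 2-fold higher, Fcgr1, the high-affinity receptor, at 63.6 and 30.3 CPM without mixed cells. Among TREM and CD300 genes, 1 of 8 was higher, Trem2, a lipid-sensing receptor, at 73.8 and 22.8 CPM. Of complement and uptake genes without mixed cells, C1qb (42.1 and 10.5 CPM, against 52.7 and 24.4 over all chosen cells) and C3 (169 and 80.7 CPM) were higher and Cd36 lower. Of 16 growth factor receptor and survival genes, 13 were compared, with 0 higher and 1 lower, the neutrophil-list gene Csf3r, which was at 123 and 113 CPM without mixed cells. The 3 copies of Bcl2a1 compared had ratios from 0.553 to 0.652 without mixed cells, and near-identical copies like these can share reads.

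Cxcl2 turned its direction when mixed cells were left out, while Il1b, Cd14, Il10 and Ier3 were higher under the GFI1 KO label both ways. Cxcl2, a neutrophil-drawing chemokine, stood at 616 and 679 CPM over all chosen cells, and at 612 (585 to 640) and 219 (200 to 239) CPM without mixed cells, so its ratio went from 0.907 to 2.79. Il1b stood at 3557 and 3198 CPM with and at 3567 and 2036 without mixed cells, a ratio of 1.75 (1.69 to 1.81), and Cd14, a receptor for bacterial lipopolysaccharide, at 496 and 321 CPM with and at 503 and 217 without mixed cells, ratios of 1.55 and 2.32. Il10, a dampening cytokine, stood at 33.2 and 6.58 CPM without mixed cells, from 105 and 15 UMIs. Over all genes 1.06% were 2-fold higher and 2.04% lower, and without mixed cells 1.18% and 0.969%. Of the 16 immediate-early and heat-shock genes, 1 was higher by 2-fold (Ier3) and 2 were lower, with a median of 0.980. Without mixed cells 1 was higher (Ier3) and 0 were lower, with a median of 1.06. Of 16 cytokine and chemokine genes, 1 was higher (Il10) and 4 were lower (Il1rn, Ccl4, Ccl5 and Ptgs2), and without mixed cells 15 were compared, with 1 higher (Cxcl2) and 1 lower (Ccl5). Of 12 cell cycle genes only Pcna reached the level needed for a ratio, which was 0.957.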

How the data were processed

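For an adult lung library of each genotype the authors deposited raw UMI counts per gene and antibody tag for every called cell, without normalization. The submitters' processing notes name Cell Ranger 9.0.1 and GRCm39, and no removal of doublets or free RNA is given in the sources used here. Cells were kept with at least 500 gene UMIs, 200 genes and at most 20% mitochondrial UMIs, the limits of the study. For levels, 9526 genes were left out (83 ribosomal protein, 13 mitochondrial, 9430 Gm-number), and the UMIs of each cell group were summed. Levels carry exact Poisson intervals, shares Clopper-Pearson intervals and ratios conditional binomial intervals, with Python 3.11.15 and scipy 1.17.1. PCR error, sorting error and spread between cells are not in them. Ratios were tested on simulated data. The simulated counts held counting error only, so they could not test intervals for genes whose UMIs sat in few cells. Named genes were the rule genes, the listed genes and the 10 highest and 10 lowest per comparison, ranked by the interval bound nearer to 1. Scrublet in scanpy 1.11.5 called 346 (3.30%) and 1145 (5.92%) of filtered cells doublets, and they were kept. For shares across depths, cells were thinned to 3000 UMIs, which left out 17 and 20 of the chosen cells. The members, the lists and the comparisons were chosen with earlier results of these data known. The RefSeq promoter table on GRCm38.p6 held all 4 genes printed. Some genes of the lists, counted in the totals, are not reported here by name.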

Additional observations from a re-analysis of the deposited data

Results flagged for a closer look

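Several ratios pointed opposite ways in the populations or libraries compared, and none of these differences was tested, since each genotype had 1 library. The ratio of GFI1 KO over WT was 0.0172 for S100a9 and 0.0370 for S100a8 in all chosen nonclassical monocytes, against 5.85 and 12.6 in classical monocytes. Without mixed cells both ratios were above 1 in the nonclassical cells as well. Both genes are on the neutrophil list by which most mixed cells were named, so this turn depends on that choice. The thinned shares of S100a8 without mixed cells, 4.66% and 2.13%, lay near those of B cells, 3.07% and 3.82%. The ratio of S100a9 rests largely on 1 cell labelled GFI1 KO, which held 80 of 147 UMIs. With mixed cells left out and no classical marker allowed, the log2 ratio of S100a9 was -0.122.

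Against classical monocytes, 9 single neutrophil and granule genes were below 1 in cells labelled GFI1 KO and above 1 under the WT label, and these ratios were not tested. Of the 14 granule and acute-phase genes compared, 6 were 2-fold lower in both libraries and 1 was higher, beside 3.7% of all genes lower and 4.94% higher, and without mixed cells 10 of 12 were lower and 1 was higher, beside 4.6% and 5.12%. The list holds Mpo, Elane, Prtn3 and Ctsg, which limited the choice of the classical cells. The ratios were 0.0396 and 3.26 for Lcn2, 0.0227 and 7.72 for S100a8, 0.0242 and 8.21 for S100a9, 0.152 and 4.35 for Lrg1, 0 and 4.37 for Mmp9, and 0.0327 and 9.56 for Wfdc21. They were 0.123 and 6.21 for Retnlg, 0.0736 and 6.89 for Cxcr2, and 0.203 and 3.0 for Il1r2. The 62 cells labelled WT with neutrophil genes are among the cells that gave these values. Without mixed cells the 9 ratios under the WT label were all below 1, from 0.0241 for Retnlg to 0.603 for Wfdc21. S100a8, S100a9, Mmp9, Retnlg, Cxcr2 and Il1r2 are on the neutrophil list that named most mixed cells, so their turn depends on that choice.

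For 5 single genes the directions were the other way round. Of the dendritic cell list 2 genes were compared, and 1 was 2-fold lower than in classical monocytes in both libraries, with and without mixed cells, beside 3.7% of all genes with and 4.6% without them. The ratio to classical monocytes was 7.85 in cells labelled GFI1 KO and 0.425 under the WT label for C1qa, 3.67 and 0.303 for C1qb, 3.71 and 0.429 for Axl, 2.11 and 0.398 for Ciita and 2.38 and 0.133 for Cd209a. With mixed cells left out of the nonclassical cells but not of the classical ones, opposite directions remained for C1qb (2.93 and 0.130), Axl (2.41 and 0.446) and Cd209a (2.16 and 0.169). In classical monocytes C1qb stood at 14.4 and 80.7 CPM, so the lower classical level under the GFI1 KO label entered these ratios.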

How the results depend on the processing

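No paired analysis was possible because each genotype had 1 library and 1 replicate number. The share of nonclassical monocytes was 4.69% under the GFI1 KO label and moved to 5.55% with at least 2 selection genes, 3.79% with at least 4, 2.89% with no classical marker allowed and 3.67% with cells thinned to 3000 UMIs before the rule. The share under the WT label was 2.42% and moved to 2.07% with at least 4 genes, 1.91% with no classical marker, 2.02% with thinned cells and 2.04% without mixed cells. The 125 genes lower under the GFI1 KO label became 59 without mixed cells, 59 without mixed cells and with no classical marker, 57 at a mean level of at least 50 CPM and 2746 with no filter, and the 65 higher became 33 and 1199 under the last 2. Those last 2 compared 3812 and 14733 genes instead of 6129. The 230 genes lower than in classical monocytes, of 6215 compared, became 145 of 3836 at 50 CPM. Both alternatives without mixed cells were chosen after seeing the data.

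Without mixed cells the log2 ratio of GFI1 KO over WT turned to 1.11 for S100a9 and 2.68 for S100a8, and with no classical marker as well to 2.07 for S100a8. Both genes are on the neutrophil list by which most mixed cells were named. In that second setting the log2 ratio of S100a9 was -0.122, and 80 of its 147 UMIs under the GFI1 KO label sat in 1 cell. For Retnlg the value in the second setting was 0.026, from 1 UMI in each library, and shows no direction. The log2 ratio of S100a8 to classical monocytes under the WT label turned to -4.47. Of the other log2 ratios between the labels, 276 stayed within their counting interval and 104 moved. Some of those that moved also changed sign from a negative main value. Ly6c2 did so with at least 2 selection genes and Spn with at least 4. Spn also did so with no classical marker allowed, where its log2 ratio was 0.0572. The medians of the CD11b, CD11c and Ly-6G tags stayed within their quartiles in both libraries under the 3 alternatives tried, and other tags were not tried. The lowest levels rest on 1 to 5 UMIs, so the size of a ratio over such a level is known only within its wide interval.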
